A study of Mus musculus with 12 samples.

Results

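The vacuolar-type proton pump (V-ATPase) and the acid-base transport genes of intercalated cells were followed in whole mouse kidneys that overexpress Myc, with or without a knockout of Grhl2. The set holds 34 genes, chosen by name from the 46403 genes of the count table: 22 V-ATPase subunits and accessory proteins, and 12 transporters, enzymes and receptors. Of the pump genes, 16 are ubiquitous subunits found in nearly every cell, and 5 are paralogs restricted to intercalated cells and other specialised cells (Atp6v0a4, Atp6v0d2, Atp6v1b1, Atp6v1c2 and Atp6v1g3). Atp6v0e2 belongs to neither class and stands alone. All 34 genes passed the filter on low counts, which 23742 genes of the table passed.

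The V-ATPase hydrolyses ATP in its cytosolic V1 sector and moves protons across the membrane through its V0 sector. Every cell uses it to acidify lysosomes and endosomes. Intercalated cells of the collecting duct place a form of it with tissue-specific subunits in the plasma membrane: type A cells secrete acid into the urine and type B cells secrete bicarbonate. In humans, mutations of ATP6V1B1, ATP6V0A4 or SLC4A1 cause distal renal tubular acidosis.

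Polyadenylated RNA of the entire right kidney was sequenced in 12 libraries. Grhl2KO_Myc kidneys (n = 4) came from crossing HoxB7-Cre mice with 1 floxed Grhl2 allele to mice that carried a MYC transgene at Rosa26 behind a floxed stop cassette and were floxed for Grhl2 on both alleles. HoxB7-Cre recombines in ureteric bud derivatives such as the collecting duct, so most cells of a whole kidney lie outside its reach. Myc kidneys (n = 3) are labelled as overexpressing Myc. The sources used here give neither their cross nor their Grhl2 alleles, and their library identifiers hold the letters HET. Wildtype kidneys (n = 5), as the labels use the word, carried the silent R26StopFLMYC transgene and Grhl2 flox/flox without a stated Cre. No age is stated, no mouse was treated, and nothing in the labels says whether replicate libraries are from different mice. P-values therefore measure the spread between these libraries, which may be technical in part.

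Total counts lay between 75187006 and 108164810 in Grhl2KO_Myc libraries, 70608817 and 101043826 in Myc libraries and 52973520 and 98713157 in wildtype libraries. Levels are TMM-scaled CPM, counts of a gene relative to the scaled total of its library, and values of a group are given in the order of its replicate numbers. Grhl2 averaged 21.04 ± 2.78 CPM in Grhl2KO_Myc kidneys (SD, n = 4), 29.9 ± 2.71 CPM in Myc kidneys (SD, n = 3) and 25.8 ± 2.04 CPM in wildtype kidneys (SD, n = 5). It fell in Grhl2KO_Myc against Myc kidneys (log2 fold change -0.51, edgeR adjusted p = 0.044) and did not pass the test against wildtype kidneys (adjusted p = 0.082). Myc transcripts did not pass it in any comparison (adjusted p = 0.42 to 1). The value is that of the mouse gene Myc in the count table. Whether reads of the MYC transgene were counted in it is not stated, so it need not measure the transgene. Proximal tubule transcripts were low in Grhl2KO_Myc 3, Grhl2KO_Myc 4 and wildtype 4, with mean log2 differences of -1.02, -0.91 and -1.27 from the average of all libraries, against -0.16 to 0.81 in the other 9 libraries. Y-linked transcripts were present in 2 of 4 Grhl2KO_Myc, 1 of 3 Myc and 1 of 5 wildtype libraries. In Myc 1 the ribosomal RNA gene Rn18s-rs5 with Yam1 and Lars2 held 5.55% of counts, against 0.16% to 0.581% elsewhere.

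The restricted subunits and the transport, enzyme and receptor genes varied more between libraries than the ubiquitous subunits did. The highest library exceeded the lowest by a median of 1.86-fold over the restricted subunits, 2.51-fold over the transport, enzyme and receptor genes and 1.23-fold over the ubiquitous subunits, of which Atp6v1a varied most (1.6-fold). Group means were highest in Myc kidneys for 4 of the 5 restricted subunits and 8 of the 12 transport, enzyme and receptor genes. The exceptions were Rhcg and Slc4a8, highest in Grhl2KO_Myc kidneys, and Atp6v0a4, Slc26a4 and Car12, highest in wildtype kidneys. Against Myc kidneys, the median log2 fold change of Grhl2KO_Myc kidneys was -0.48 over the 5 restricted subunits, -0.40 over the 12 transport, enzyme and receptor genes and -0.069 over the 16 ubiquitous subunits, beside 0.002 over all genes tested. Against wildtype kidneys, the medians in Grhl2KO_Myc kidneys were -0.073, -0.32 and -0.081 for these classes, beside -0.007; with the proximal tubule score in the model, the second of these was -0.094. Between Myc and wildtype kidneys they were 0.40, 0.19 and -0.009, beside 0, and the second was 0.016 without wildtype 4 and 0.123 without Myc 3. The comparisons share libraries: the Myc kidneys enter the first and the last of them. In whole kidneys, fewer intercalated cells and less of a transcript in each cell cannot be told apart.

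**Figure D1:**
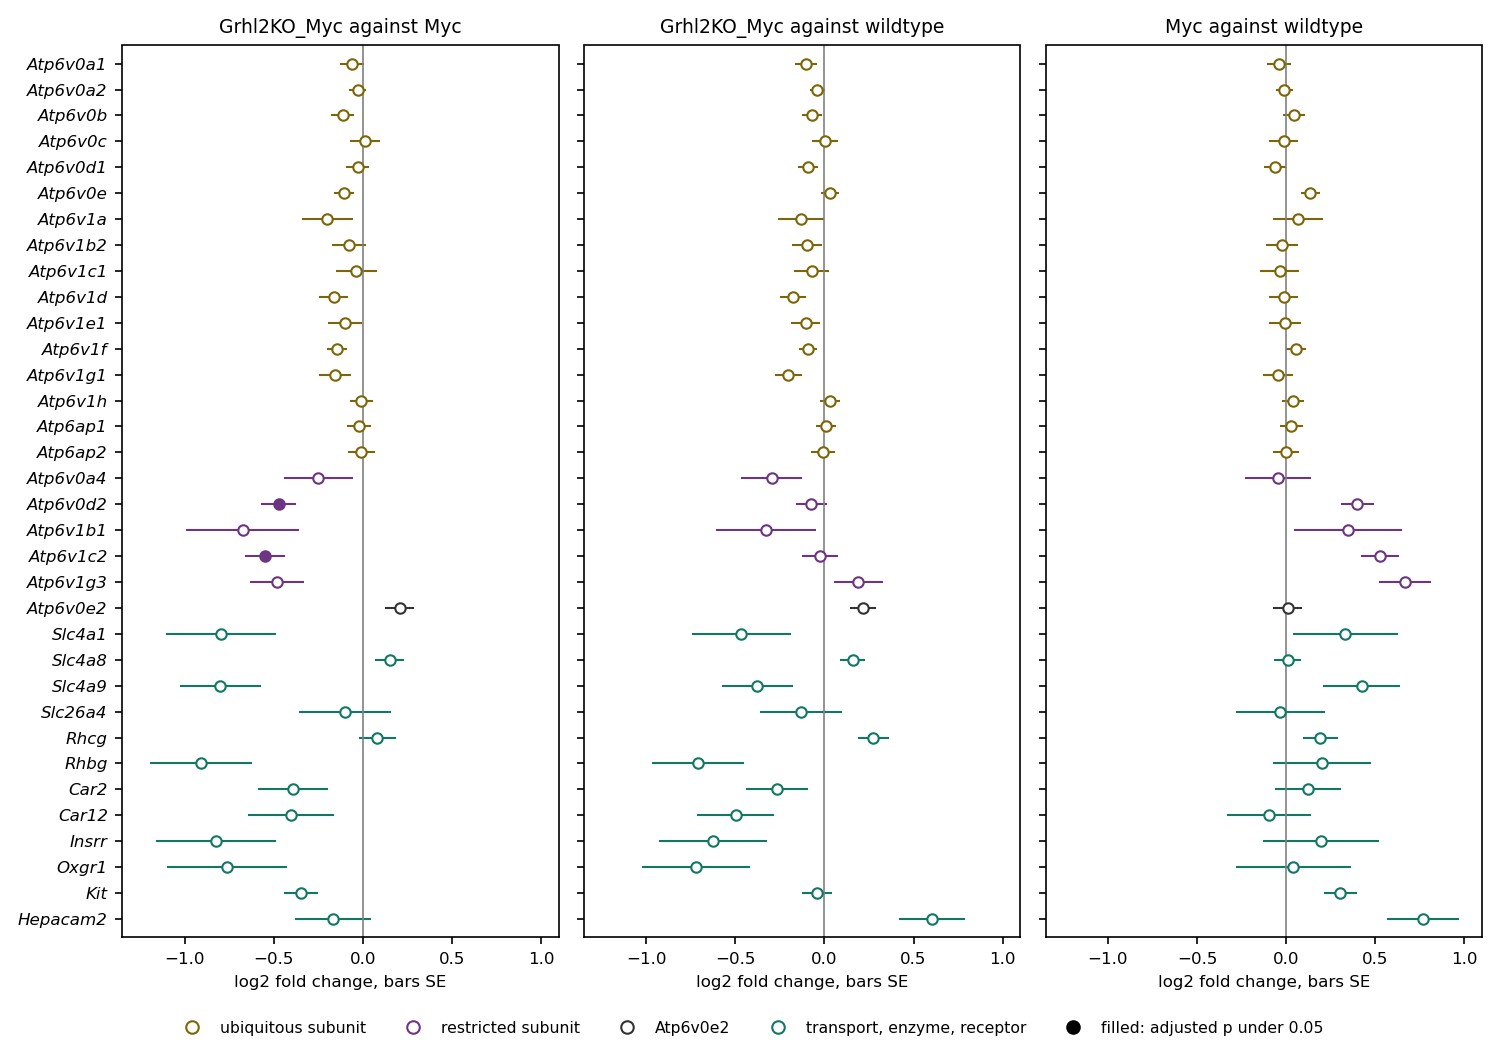
Log2 fold change of each of the 34 genes with its standard error in the 3 comparisons, coloured by class; filled points passed an adjusted p of 0.05 in edgeR. Filled points are Atp6v0d2 and Atp6v1c2 in Grhl2KO_Myc against Myc kidneys, and the ubiquitous subunits at the top stay between -0.20 and 0.14 in every panel.

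In Grhl2KO_Myc against Myc kidneys, 2 of the 34 genes passed an adjusted p of 0.05 in edgeR's quasi-likelihood test, both lower, against 0.842% of all genes tested (0.484% lower). Grhl2KO_Myc libraries lay wholly below the Myc libraries for 11 of the 34 genes, against 7.89% of all genes, and wholly above them for 2, against 8.95%. In Grhl2KO_Myc against wildtype kidneys 0 of 34 passed, while 6.67% of all genes did. An unadjusted p under 0.05 was reached there by 9 of 34 genes, against 22% of all genes. DESeq2 called 3 of 34 in this comparison, Rhcg and Hepacam2 higher and Rhbg lower, against 12.1% of all genes, and limma-voom called 0. In Myc against wildtype kidneys 0 of 34 passed, against 0.00421% of all genes, which is 1 gene. There 6 genes reached an unadjusted p under 0.05, all higher, against 2.83% of all genes in that direction, and Myc libraries lay wholly above wildtype libraries for 6 genes, against 2.22%. DESeq2 called Atp6v0d2, Atp6v1c2 and Atp6v1g3 higher in Myc kidneys, against 0.189% of all genes, and limma-voom called 0.

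The promoters of 3 restricted subunits that were highest in the Myc kidneys are printed beside those of 2 ubiquitous subunits, because the classes differed in how they moved. The sequences are from RefSeq (GRCm38.p6, the assembly behind mm10), run 5′ to 3′ on the strand of the gene from 250 bases before its start to 50 bases after it, and have motif matches in capitals. Of the 34 genes, 23 have an entry in the promoter table. Atp6v0d2, whose mean was also highest in the Myc kidneys, has none.
Atp6v1b1, chr6:83742767-83743066, plus strand, TGTTTAC at -98: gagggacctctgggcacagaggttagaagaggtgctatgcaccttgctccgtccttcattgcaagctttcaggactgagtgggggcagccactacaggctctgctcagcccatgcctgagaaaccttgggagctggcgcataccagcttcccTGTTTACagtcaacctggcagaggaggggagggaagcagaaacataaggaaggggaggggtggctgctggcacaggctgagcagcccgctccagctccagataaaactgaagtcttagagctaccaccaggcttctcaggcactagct
Atp6v1c2, chr12:17324681-17324980, minus strand, no match: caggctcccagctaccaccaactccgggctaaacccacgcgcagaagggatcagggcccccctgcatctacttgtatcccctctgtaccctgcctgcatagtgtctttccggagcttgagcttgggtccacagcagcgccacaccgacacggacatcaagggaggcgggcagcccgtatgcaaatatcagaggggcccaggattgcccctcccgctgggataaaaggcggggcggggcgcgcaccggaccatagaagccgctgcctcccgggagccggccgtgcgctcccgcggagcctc
Atp6v1g3, chr1:138273488-138273787, plus strand, no match: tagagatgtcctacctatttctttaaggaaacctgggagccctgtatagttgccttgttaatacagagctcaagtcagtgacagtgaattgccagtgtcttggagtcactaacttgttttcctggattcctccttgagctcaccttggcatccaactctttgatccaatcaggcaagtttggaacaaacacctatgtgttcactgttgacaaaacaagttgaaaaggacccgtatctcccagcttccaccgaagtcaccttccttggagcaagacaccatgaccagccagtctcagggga
Atp6v1a, chr16:44139210-44139509, minus strand, TCACGTG from -132 on both strands: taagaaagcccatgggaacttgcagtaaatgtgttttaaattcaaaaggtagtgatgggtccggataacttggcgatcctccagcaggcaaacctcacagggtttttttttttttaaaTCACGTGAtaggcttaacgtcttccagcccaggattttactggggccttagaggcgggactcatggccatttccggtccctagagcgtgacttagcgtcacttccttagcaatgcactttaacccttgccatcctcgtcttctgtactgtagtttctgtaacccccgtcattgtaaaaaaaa
Atp6v0d1, chr8:105566015-105566314, minus strand, TCACGTG from -4 on both strands: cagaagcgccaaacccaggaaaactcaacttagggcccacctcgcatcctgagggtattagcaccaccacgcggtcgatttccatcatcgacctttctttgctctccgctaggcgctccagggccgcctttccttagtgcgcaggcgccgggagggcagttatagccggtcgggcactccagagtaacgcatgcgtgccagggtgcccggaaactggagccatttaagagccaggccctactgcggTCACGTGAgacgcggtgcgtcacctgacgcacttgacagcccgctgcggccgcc

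Both strands were searched for 4 motifs: CACGTG, the E-box that Myc with Max and the MiT/TFE factors can bind; TCACGTG, the core of the CLEAR element of lysosomal genes, which contains that E-box; TGTTTAC, a forkhead motif; and AACCGGT, a grainyhead motif. The E-box was present in 4 of 11 ubiquitous subunits with an entry, Atp6v0b, Atp6v0d1, Atp6v0e and Atp6v1a, each time within the CLEAR core. The ubiquitous promoters printed above, of Atp6v1a and Atp6v0d1, are among these 4. The E-box was present in 0 of 4 restricted subunits and 0 of 7 transport, enzyme and receptor genes, and in 8.09% of the 27025 genes of the promoter table (4.29% for the CLEAR core). The forkhead motif was found in Atp6v1b1 alone among the 23 genes and in 4.05% of the table, and the grainyhead motif in Atp6v1d alone and in 1.17% of the table. These matches describe the letters in the window and not the binding of a factor.

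Atp6v1b1 and Atp6v1b2 encode the B subunit of V1, which shares the nucleotide-binding sites with the catalytic subunit Atp6v1a. Atp6v1b1 is the form of intercalated cells. Atp6v1b1 had 86.7, 87.4, 51.2 and 48.8 CPM in Grhl2KO_Myc kidneys, 100.2, 109 and 119 CPM in Myc kidneys and 85.3, 108, 94.5, 35.6 and 107 CPM in wildtype kidneys. Every Grhl2KO_Myc library lay below every Myc library, and the 3 libraries low in proximal tubule transcripts were also the 3 lowest for Atp6v1b1. The difference of Grhl2KO_Myc from Myc kidneys was -0.68 ± 0.32 (SE) on the log2 scale and did not pass the test (adjusted p = 0.39). Without those 3 libraries it was -0.33 ± 0.10 (SE). Atp6v1b2, the ubiquitous paralog, had 158, 153, 126 and 133 CPM in Grhl2KO_Myc kidneys, 135, 151 and 164 CPM in Myc kidneys and 137, 157, 165, 143 and 160.4 CPM in wildtype kidneys. Its groups overlapped throughout.

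Atp6v0d1 and Atp6v0d2 encode the d subunit, which joins V0 to the central rotor, and Atp6v0d2 is also known from osteoclasts. Atp6v0d2 had 21.5, 21.8, 21.9 and 20.3 CPM in Grhl2KO_Myc kidneys, 26.8, 31.5 and 30.9 CPM in Myc kidneys and 17.9, 24.03, 23.9, 22.6 and 24.1 CPM in wildtype kidneys. All Myc libraries lay above all others, and Grhl2KO_Myc and wildtype libraries overlapped. Means were 21.4 ± 0.729 CPM in Grhl2KO_Myc kidneys (SD, n = 4), 29.7 ± 2.56 CPM in Myc kidneys (SD, n = 3) and 22.5 ± 2.64 CPM in wildtype kidneys (SD, n = 5). Atp6v0d2 fell 1.39-fold in Grhl2KO_Myc against Myc kidneys (log2 fold change -0.47 ± 0.10 (SE), edgeR adjusted p = 0.048). The value in Myc against wildtype kidneys was 0.40 ± 0.094 (SE) with an adjusted p of 0.56, and DESeq2 gave 0.044. The fall held without wildtype 1 or wildtype 4. It lost its call without any 1 of the other 10 libraries, where the log2 fold change stayed between -0.55 and -0.43 and the adjusted p lay between 0.052 and 0.21. Atp6v0d1 had 80.8, 85.2, 73.7 and 79.3 CPM in Grhl2KO_Myc kidneys, 77.00, 81.7 and 85.5 CPM in Myc kidneys and 77.4, 85.1, 87.4, 90.1 and 84.5 CPM in wildtype kidneys, with overlap between all groups. Macrophage and osteoclast markers, 9 genes all detected, summed to 119 to 166 CPM in Grhl2KO_Myc libraries, 114 to 139 CPM in Myc libraries and 122 to 146 CPM in wildtype libraries. Among them Acp5, an osteoclast enzyme, averaged 3.45 CPM in Grhl2KO_Myc kidneys, 4.41 CPM in Myc kidneys and 3.92 CPM in wildtype kidneys, with overlap. The part of these cells in the Atp6v0d2 levels was not tested.

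Atp6v1c1 and Atp6v1c2 encode the C subunit, which links the stator to V1 and regulates its assembly. Atp6v1c2 had 12.6, 12.9, 16.3 and 13.8 CPM in Grhl2KO_Myc kidneys, 17.9, 21.2 and 21.9 CPM in Myc kidneys and 12.5, 13.8, 14.3, 13.5 and 16.5 CPM in wildtype kidneys. The lowest Myc library exceeded every other library, and Grhl2KO_Myc and wildtype libraries overlapped. Atp6v1c2 fell 1.46-fold in Grhl2KO_Myc against Myc kidneys (log2 fold change -0.55 ± 0.11 (SE), edgeR adjusted p = 0.047). In Myc against wildtype kidneys its log2 fold change was 0.53 ± 0.11 (SE) with an adjusted p of 0.48, and DESeq2 gave 0.0089. The fall held without wildtype 4, wildtype 5 or Grhl2KO_Myc 3. It lost its call without any 1 of the other 9 libraries, where the log2 fold change stayed between -0.64 and -0.50 and the adjusted p lay between 0.053 and 0.19. Atp6v1c1 had 49.1, 52.6, 41.6 and 43.05 CPM in Grhl2KO_Myc kidneys, 40.96, 48.2 and 54.2 CPM in Myc kidneys and 41.96, 50.7, 54.3, 45.9 and 52.1 CPM in wildtype kidneys, and no group stood apart. Atp6v1c2 overlaps Pdia6 on the opposite strand, and since the libraries do not mark strand, reads of the shared stretch cannot be told apart.

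Atp6v1g1 and Atp6v1g3 encode the G subunit of the peripheral stalks. Atp6v1g3 had 18.6, 15.4, 19.8 and 17.4 CPM in Grhl2KO_Myc kidneys, 24.1, 26.2 and 24.4 CPM in Myc kidneys and 14.2, 18.8, 17.4, 10.8 and 17.1 CPM in wildtype kidneys. All Myc libraries lay above all Grhl2KO_Myc and wildtype libraries. The log2 fold change was -0.48 ± 0.15 (SE) in Grhl2KO_Myc against Myc kidneys (adjusted p = 0.19) and 0.67 ± 0.15 (SE) in Myc against wildtype kidneys (adjusted p = 0.48), and edgeR called neither. Without wildtype 4, which had the lowest Atp6v1g3 level, Grhl2KO_Myc kidneys were lower than Myc kidneys with an adjusted p of 0.028. Wildtype 4 is in neither of these groups: the log2 fold change stayed at -0.48, and the SE was then 0.10. Atp6v1g1 had 108, 111, 87.1 and 95.2 CPM in Grhl2KO_Myc kidneys, 109, 116 and 110.1 CPM in Myc kidneys and 108, 130.5, 116, 106 and 117 CPM in wildtype kidneys, with the lowest values in Grhl2KO_Myc 3 and Grhl2KO_Myc 4.

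Atp6v0a1 and Atp6v0a4 encode the a subunit, which forms the proton path with the c ring and steers the pump to its membrane. Atp6v0a4 had 113, 98.7, 69.2 and 67.8 CPM in Grhl2KO_Myc kidneys, 85.04, 100.2 and 126 CPM in Myc kidneys and 91.8, 111, 121, 88.4 and 123 CPM in wildtype kidneys. It was the 1 restricted subunit whose Grhl2KO_Myc and Myc libraries overlapped: Grhl2KO_Myc 1 exceeded 2 of the 3 Myc libraries, and Grhl2KO_Myc 3 and 4 were the lowest of all. The log2 fold change in Grhl2KO_Myc against Myc kidneys was -0.25 ± 0.19 (SE) (adjusted p = 0.61), and without the 3 libraries low in proximal tubule transcripts it turned to 0.028. Atp6v0a1 had 50.95, 51.2, 60.2 and 59.4 CPM in Grhl2KO_Myc kidneys, 58.6, 60.2 and 54.9 CPM in Myc kidneys and 58.4, 57.3, 60.8, 62.97 and 58.3 CPM in wildtype kidneys. Atp6v0a4 overlaps Tmem213, an intercalated cell marker on the opposite strand, so its counts may include reads of that gene.

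**Figure D2:**
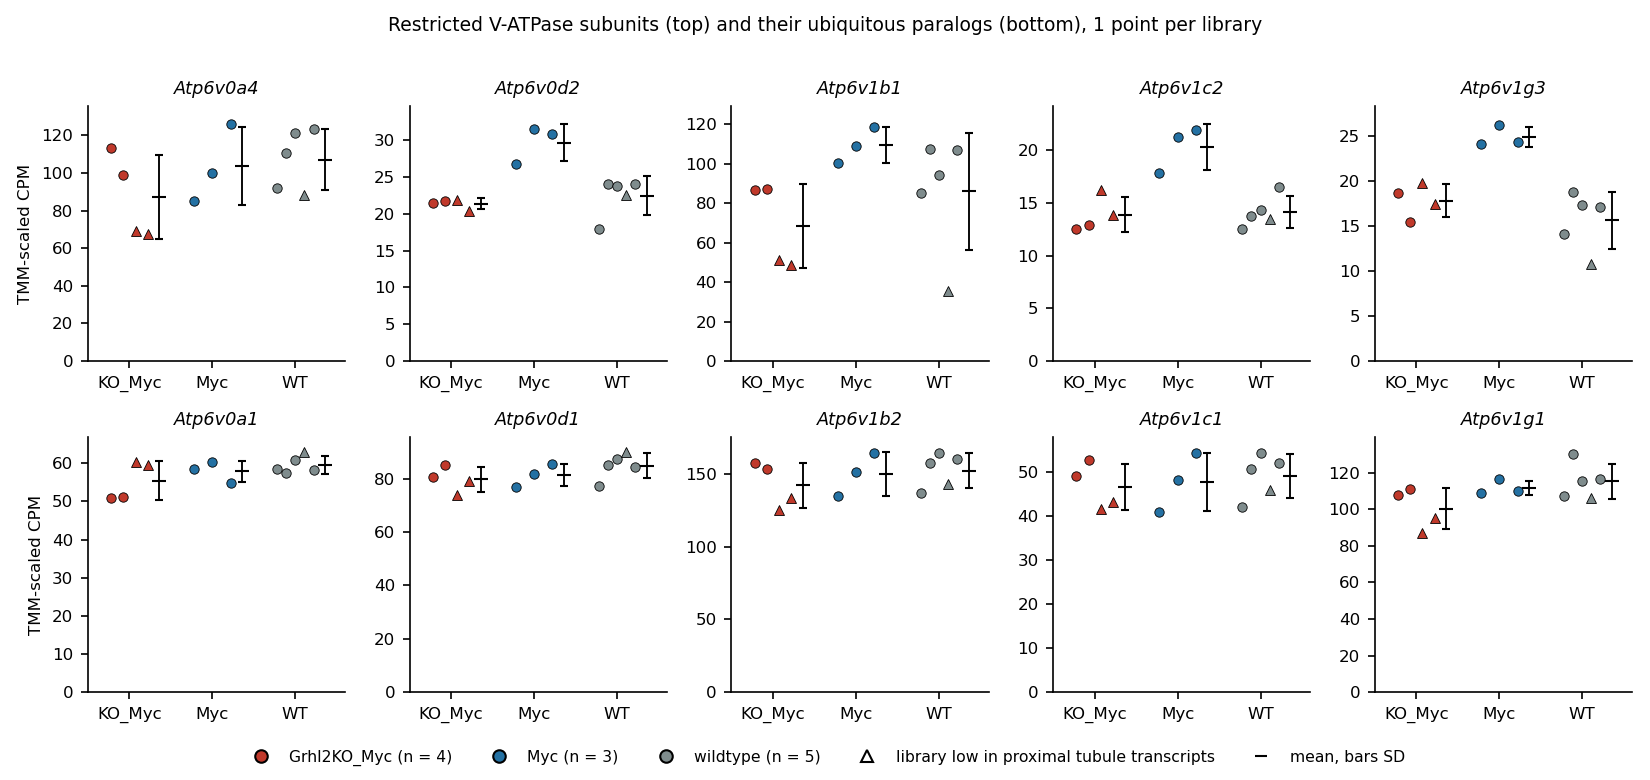
TMM-scaled CPM of the 5 restricted subunits (top) and their ubiquitous paralogs (bottom) in each library, with group mean and SD beside the points; triangles are the 3 libraries low in proximal tubule transcripts. The 3 Myc libraries stand above all others for Atp6v0d2, Atp6v1c2 and Atp6v1g3, and no group stands apart among the paralogs in the bottom row.

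Set against its paralog within the same library, each restricted subunit except Atp6v0a4 took a larger mean share in Myc kidneys than in wildtype kidneys. Levels were divided by exon width for this, in CPM per kilobase, and no test was run. Atp6v1c2 made up 19.9% to 28.4% of the summed C subunit level in Grhl2KO_Myc libraries, 29.1% to 30.9% in Myc libraries and 21.1% to 24.3% in wildtype libraries. Atp6v0d2 made up 14.5% to 16.4% of the d subunit in Grhl2KO_Myc libraries, 18.7% to 20.3% in Myc libraries and 13.3% to 15.9% in wildtype libraries. The Myc libraries exceeded every other library for both.

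Atp6v1b1 made up 50.2% to 61.1% of the B subunit level in Grhl2KO_Myc libraries, 66.5% to 67.2% in Myc libraries and 40.6% to 65.3% in wildtype libraries. Its mean log2 ratio to Atp6v1b2 was 0.469 higher in Myc than in wildtype kidneys, and 0.198 higher without wildtype 4. Atp6v1g3 made up 7.71% to 12.03% of the G subunit in Grhl2KO_Myc libraries, 11.8% to 11.9% in Myc libraries and 5.77% to 8.28% in wildtype libraries, and Grhl2KO_Myc 3 exceeded the Myc libraries. For Atp6v0a4 the shares were 60.1% to 74.6% of the a1 and a4 forms in Grhl2KO_Myc libraries, 65.7% to 75.1% in Myc libraries and 64.9% to 73.6% in wildtype libraries. By this measure Atp6v0a4 exceeded its paralog in all 12 libraries, Atp6v1b1 did so in all but wildtype 4, and the other 3 restricted subunits were the smaller form throughout.

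**Figure D3:**
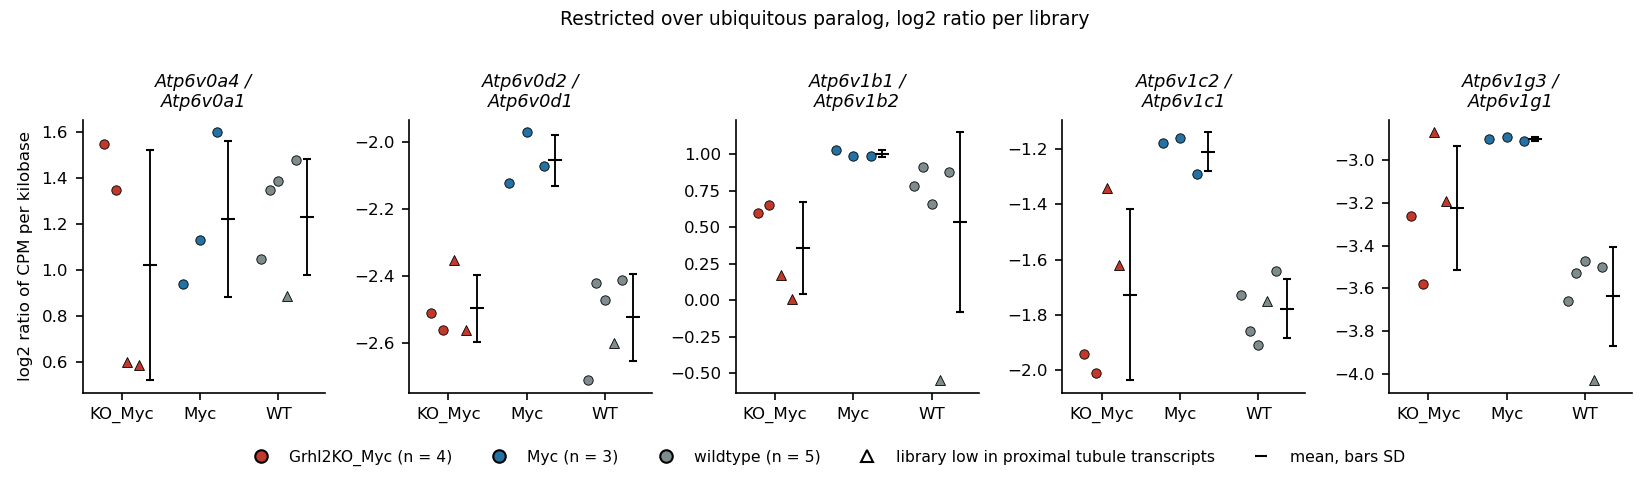
Log2 ratio of each restricted subunit over its ubiquitous paralog, from CPM per kilobase of exon width, 1 point per library with group mean and SD. For Atp6v0d2, Atp6v1b1 and Atp6v1c2 the 3 Myc libraries lie above every other library, with means of -2.06, 1.01 and -1.21 in Myc kidneys.

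The 16 ubiquitous subunits and accessory proteins differed little. Per kilobase of exon width, group means in Grhl2KO_Myc kidneys ran from 8.23 ± 0.539 CPM for Atp6v1h, the regulatory H subunit, to 88.4 ± 9.77 CPM for Atp6v1g1 (SD, n = 4). Between Grhl2KO_Myc and Myc kidneys their log2 fold changes lay between -0.20 for Atp6v1a, the catalytic subunit, and 0.014 for Atp6v0c, the main subunit of the proton-carrying ring. In all, 15 of 16 lay below 0, against 49.47% of all genes tested. edgeR, DESeq2 and limma-voom called 0 of them, against 0.842% of all genes in edgeR, and 1 had an unadjusted edgeR p under 0.05, against 13.3%. Atp6v1f, part of the central rotor, was the 1 ubiquitous subunit whose groups did not overlap, with 54.9, 52.7, 51.8 and 53.4 CPM in Grhl2KO_Myc kidneys, 58.5, 59.4 and 58.8 CPM in Myc kidneys and 55.7, 56.5, 51.6, 62.2 and 57.4 CPM in wildtype kidneys. Its log2 fold change against Myc kidneys was -0.15 ± 0.057 (SE) (adjusted p = 0.28).

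Between Grhl2KO_Myc and wildtype kidneys the ubiquitous subunits lay between -0.20 for Atp6v1g1 and 0.031 for Atp6v1h, with 12 of 16 below 0 beside 51.55% of all genes. Atp6v1g1 and Atp6v1d, a rotor subunit, had unadjusted p-values under 0.05 there and adjusted p-values of 0.15 and 0.18. Between Myc and wildtype kidneys the range was -0.061 for Atp6v0d1 to 0.14 for Atp6v0e, a small V0 subunit (adjusted p = 1 for both). The accessory proteins Atp6ap1 and Atp6ap2, of which Atp6ap2 is also the (pro)renin receptor, had absolute log2 fold changes below those of every restricted subunit in Grhl2KO_Myc against Myc kidneys, at -0.022 ± 0.066 (SE) and -0.0083 ± 0.075 (SE). Atp6v0c has 2 annotated pseudogene copies, Atp6v0c-ps1 and Atp6v0c-ps2, that could share its reads.

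Atp6v0e2, the paralog of Atp6v0e, ran the other way. It had 21.4, 22.01, 22.4 and 23.6 CPM in Grhl2KO_Myc kidneys, 17.5, 19.2 and 21.3 CPM in Myc kidneys and 16.97, 19.9, 20.3, 18.8 and 20.2 CPM in wildtype kidneys. All Grhl2KO_Myc libraries lay above all Myc and wildtype libraries, at a log2 fold change of 0.21 ± 0.083 (SE) against Myc kidneys (adjusted p = 0.3) and 0.21 ± 0.073 (SE) against wildtype kidneys (adjusted p = 0.1), neither of which passed. It was the 1 gene of the 34 whose Grhl2KO_Myc and wildtype libraries did not overlap, against 9.47% of all genes.

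Among the chloride-bicarbonate exchangers, Slc4a1 (AE1) returns bicarbonate to the blood from type A cells. Slc4a1 had 11.01, 8.25, 4.88 and 5.62 CPM in Grhl2KO_Myc kidneys, 14.2, 13.4 and 11.2 CPM in Myc kidneys and 9.55, 12.3, 12.4, 5.04 and 11.97 CPM in wildtype kidneys. Grhl2KO_Myc and Myc libraries did not overlap, and the difference of -0.80 ± 0.31 (SE) on the log2 scale did not pass (adjusted p = 0.28). Slc4a1 is also a red cell gene, and 6 erythroid markers, all detected, summed to 637 to 1118 CPM in Grhl2KO_Myc libraries, 893 to 1130 CPM in Myc libraries and 904 to 1788 CPM in wildtype libraries. Their highest sum was in wildtype 4, where Slc4a1 was lowest of the wildtype libraries.

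Type B cells carry pendrin (Slc26a4) at the apical membrane, Slc4a9 (AE4) at the basolateral membrane and Slc4a8, a sodium-driven exchanger. Slc4a9 had 61.97, 61.99, 51.2 and 47.4 CPM in Grhl2KO_Myc kidneys, 90.8, 97.4 and 102 CPM in Myc kidneys and 67.7, 87.2, 90.3, 37.6 and 78.2 CPM in wildtype kidneys. Every Grhl2KO_Myc library lay below every Myc library, and every Myc library above every wildtype library. It differed by -0.80 ± 0.23 (SE) on the log2 scale in Grhl2KO_Myc against Myc kidneys (adjusted p = 0.14) and 0.42 ± 0.21 (SE) in Myc against wildtype kidneys (adjusted p = 1). edgeR called neither with all libraries, and the value in Myc against wildtype kidneys was 0.26 without wildtype 4. Without wildtype 4, a library of neither group, the difference from Myc kidneys stayed at -0.80 with an SE of 0.11 and passed (adjusted p = 0.0036). It also passed without all 3 libraries low in proximal tubule transcripts (-0.65, adjusted p = 0.019). The same held with the proximal tubule score in the model (-0.48, adjusted p = 0.039) and in DESeq2 (adjusted p = 0.015). It did not pass with a term for sex (adjusted p = 0.19) or with the replicate block (adjusted p = 0.25).

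Slc26a4 had 9.500, 8.69, 8.28 and 7.47 CPM in Grhl2KO_Myc kidneys, 9.88, 9.13 and 8.25 CPM in Myc kidneys and 7.62, 11.6, 11.4, 4.43 and 11.3 CPM in wildtype kidneys, with all groups overlapping and its lowest value in wildtype 4. Slc4a8 had 20.2, 20.3, 21.03 and 19.9 CPM in Grhl2KO_Myc kidneys, 18.6, 19.1 and 17.4 CPM in Myc kidneys and 19.6, 18.3, 16.7, 16.4 and 20.2 CPM in wildtype kidneys. The Grhl2KO_Myc libraries all lay above the Myc libraries, at a log2 fold change of 0.15 ± 0.08 (SE) that did not pass (adjusted p = 0.45). None of the 3 type B exchangers was called by edgeR between Grhl2KO_Myc and Myc kidneys.

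Insrr is a receptor kinase that senses alkaline fluid, and Oxgr1 is the receptor for alpha-ketoglutarate, both found on type B cells. Insrr had 15.4, 15.3, 10.2 and 10.5 CPM in Grhl2KO_Myc kidneys, 23.2, 21.1 and 23.9 CPM in Myc kidneys and 20.9, 23.2, 20.8, 6.72 and 27.6 CPM in wildtype kidneys. Grhl2KO_Myc libraries lay below all Myc libraries, while wildtype 4 was the lowest of all 12. Insrr differed by -0.82 ± 0.34 (SE) against Myc kidneys (adjusted p = 0.31) and -0.63 ± 0.30 (SE) against wildtype kidneys (adjusted p = 0.25). Without wildtype 4 both passed, at -0.82 (adjusted p = 0.018) and -0.85 (adjusted p = 0.003), although the first comparison does not hold that library. Without all 3 low libraries the values were -0.57 (adjusted p = 0.054) and -0.59 (adjusted p = 0.014). With the proximal tubule score in the model they were -0.39 (adjusted p = 0.4) and -0.18 (adjusted p = 0.58).

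Oxgr1 had 17.7, 20.8, 9.11 and 8.95 CPM in Grhl2KO_Myc kidneys, 19.97, 23.2 and 28.7 CPM in Myc kidneys and 24.7, 28.5, 27.6, 11.2 and 24.5 CPM in wildtype kidneys. It lay between 8.95 and 11.2 CPM in the 3 libraries low in proximal tubule transcripts, and between 17.7 and 28.7 CPM in the other 9 libraries. Its log2 fold change in Grhl2KO_Myc kidneys was -0.76 ± 0.34 (SE) against Myc kidneys and -0.72 ± 0.30 (SE) against wildtype kidneys, with adjusted p-values of 0.35 and 0.18. Without the 3 libraries these values were -0.32 ± 0.14 (SE) and -0.45 ± 0.14 (SE).

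Rhbg and Rhcg carry ammonia across the basolateral and apical membranes of collecting duct cells. Rhbg had 17.2, 15.8, 11.1 and 10.04 CPM in Grhl2KO_Myc kidneys, 25.5, 22.2 and 28.4 CPM in Myc kidneys and 21.5, 26.4, 19.98, 10.8 and 31.8 CPM in wildtype kidneys. All Grhl2KO_Myc libraries lay below all Myc libraries. The log2 fold change of -0.91 ± 0.29 (SE) was the lowest of the 34 genes in this comparison. Its adjusted p was 0.19 in edgeR, 0.034 in DESeq2 and 0.034 without wildtype 4, a library of neither group. Without all 3 libraries low in proximal tubule transcripts the log2 fold change was -0.625 (adjusted p = 0.12). With the proximal tubule score in the model it was -0.57 (adjusted p = 0.14). A term for sex and the replicate block each gave an adjusted p of 0.19. Rhbg shares its locus with Gm38392 on the same strand, whose reads could be split from it.

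Rhcg had 115, 117, 102 and 109 CPM in Grhl2KO_Myc kidneys, 92.98, 97.9 and 124 CPM in Myc kidneys and 91.2, 95.96, 79.8, 89.5 and 102 CPM in wildtype kidneys. It did not follow Rhbg: its log2 fold change in Grhl2KO_Myc kidneys was 0.28 ± 0.089 (SE) against wildtype kidneys (adjusted p = 0.088 in edgeR, 0.045 in DESeq2), and all groups overlapped. Without Myc 3 edgeR called it at an adjusted p of 0.0499.

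Carbonic anhydrases supply the protons and bicarbonate for these transporters, Car2 in the cytosol and Car12 at the cell surface. Car2 had 108, 101, 70.9 and 73.9 CPM in Grhl2KO_Myc kidneys, 111, 122 and 115 CPM in Myc kidneys and 94.5, 123, 119, 69.8 and 126 CPM in wildtype kidneys. All Grhl2KO_Myc libraries lay below the Myc libraries, with a log2 fold change of -0.39 ± 0.20 (SE) (adjusted p = 0.42). Car12 had 122, 129, 77.5 and 87.4 CPM in Grhl2KO_Myc kidneys, 123, 134 and 156 CPM in Myc kidneys and 119, 169.5, 185, 87.4 and 173 CPM in wildtype kidneys. The lowest 3 values of both genes were in Grhl2KO_Myc 3, Grhl2KO_Myc 4 and wildtype 4. Car12 was -0.50 ± 0.22 (SE) in Grhl2KO_Myc against wildtype kidneys (adjusted p = 0.2), and without wildtype 4 it was -0.64 with an adjusted p of 0.029. Without all 3 of these libraries it was -0.37 (adjusted p = 0.16), and with the proximal tubule score in the model -0.199 (adjusted p = 0.051).

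Kit is a receptor tyrosine kinase and Hepacam2 an adhesion protein, and both serve as surface markers of intercalated cells. Kit had 37.3, 45.1, 53.9 and 51.2 CPM in Grhl2KO_Myc kidneys, 58.4, 60.1 and 60.5 CPM in Myc kidneys and 48.8, 46.99, 47.3, 50.3 and 48.2 CPM in wildtype kidneys. The Myc libraries lay above all others. On the log2 scale this was -0.35 ± 0.10 (SE) in Grhl2KO_Myc against Myc kidneys (adjusted p = 0.14) and 0.30 ± 0.092 (SE) in Myc against wildtype kidneys (adjusted p = 0.88). Without the 3 low libraries the first was -0.54 and passed (adjusted p = 0.0089), and with the proximal tubule score in the model it was -0.44 (adjusted p = 0.03). Kit also marks mast cells, whose other markers, of which 5 of 6 passed the filter and 2 were at 0 in at least 1 library, summed to 6.40 to 10.5 CPM in Grhl2KO_Myc libraries, 6.74 to 7.86 CPM in Myc libraries and 6.44 to 12.3 CPM in wildtype libraries. Most of the sum was Ms4a2, with means of 4.25, 5.32 and 5.41 CPM in Grhl2KO_Myc, Myc and wildtype kidneys. The mast cell proteases Cpa3, Tpsb2 and Cma1 averaged 1.83, 1.09 and 1.37 CPM in Grhl2KO_Myc kidneys, against 0.716, 0.415 and 0.553 CPM in Myc kidneys. For each of the 3, every Grhl2KO_Myc library lay above every Myc library, against 8.95% of all genes. None passed the edgeR test (adjusted p = 0.18, 0.21 and 0.21). Wildtype kidneys averaged 1.06, 0.675 and 0.872 CPM for them, with overlap with Grhl2KO_Myc kidneys. Of the other markers tested, Mcpt4 was higher and Ms4a2 lower in Grhl2KO_Myc against Myc kidneys (log2 fold changes 0.751 and -0.325), with overlap. The part of mast cells in the Kit levels was not tested.

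Hepacam2 had 8.34, 8.81, 17.1 and 13.2 CPM in Grhl2KO_Myc kidneys, 10.9, 14.6 and 14.4 CPM in Myc kidneys and 7.28, 8.36, 8.27, 7.18 and 7.95 CPM in wildtype kidneys. Myc libraries all exceeded wildtype libraries, and Grhl2KO_Myc 3 was the highest of all 12. The log2 fold change was 0.60 ± 0.19 (SE) in Grhl2KO_Myc against wildtype kidneys (adjusted p = 0.076) and 0.77 ± 0.20 (SE) in Myc against wildtype kidneys (adjusted p = 0.73). The first passed in DESeq2 (adjusted p = 0.019), without Grhl2KO_Myc 1 (0.038) and without Grhl2KO_Myc 2 (0.047). Without the 3 low libraries it was 0.10 (adjusted p = 0.65), and Grhl2KO_Myc kidneys were then -0.64 relative to Myc kidneys (adjusted p = 0.045).

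**Figure D4:**
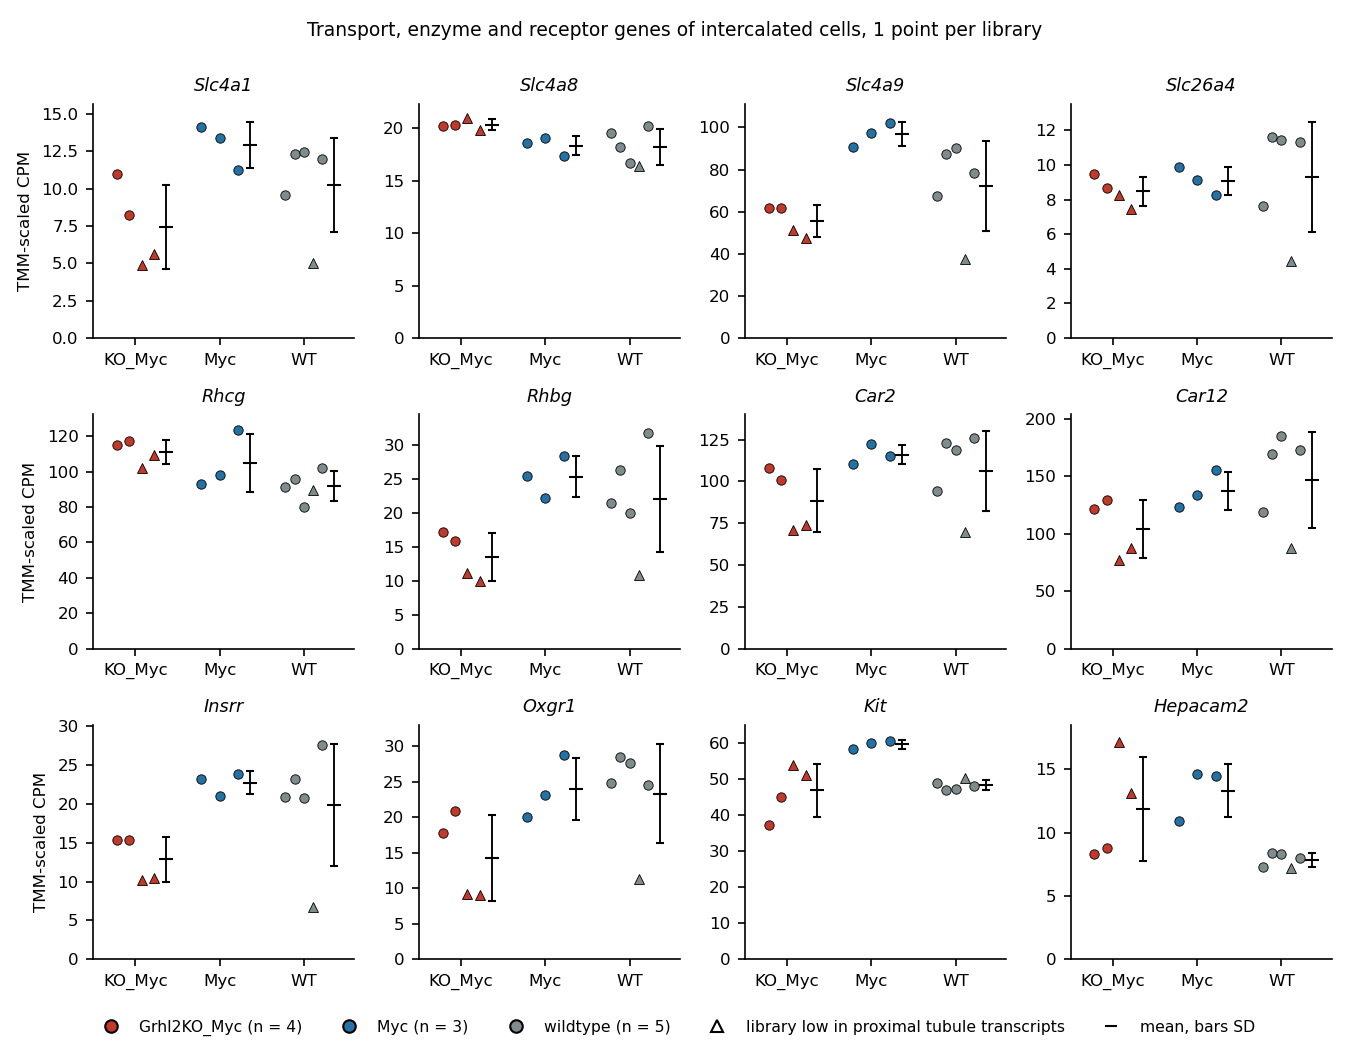
TMM-scaled CPM of the 12 transport, enzyme and receptor genes in each library, with group mean and SD beside the points; triangles are the 3 libraries low in proximal tubule transcripts. Triangles take the 3 lowest places for Slc4a1, Slc4a9, Rhbg, Car2, Car12, Insrr and Oxgr1, whereas for Kit the Myc libraries, at 58.4 to 60.5 CPM, stand above every other library.

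The libraries low in proximal tubule transcripts divided the genes. In Grhl2KO_Myc 3, Grhl2KO_Myc 4 and wildtype 4, the 22 proximal tubule markers summed to 2056, 2206 and 1921 CPM, against 3676 to 6506 CPM in the other 9 libraries. Thick limb markers, 4 genes, summed to 690, 639 and 699 CPM there and 873 to 1293 CPM elsewhere. The 3 libraries were not alike in the sum of distal convoluted tubule markers, 4 genes. It was 222 CPM in Grhl2KO_Myc 3, 285 CPM in Grhl2KO_Myc 4 and 519 CPM in wildtype 4, against 350.1 to 546 CPM elsewhere. Calb1 alone held 438 CPM of the sum in wildtype 4. Slc12a3 was low in all 3, at 51.1, 56.7 and 73.8 CPM in that order, against 123 to 215 CPM elsewhere. Trpm6 had 4.3, 4.56 and 7.39 CPM in them and was not low in wildtype 4. The same 3 libraries held the 3 lowest values of 11 of the 34 genes, against 6.43% of all genes tested. Of these, 7 were transport, enzyme and receptor genes (Slc4a1, Slc4a9, Rhbg, Car2, Car12, Insrr and Oxgr1), 1 was a restricted subunit (Atp6v1b1) and 3 were ubiquitous subunits (Atp6v0e, Atp6v1a and Atp6v1g1). Atp6v0d2, Atp6v1c2, Kit and Hepacam2 were not among them. Intercalated cell markers outside the set, 6 genes, summed to 165 to 194 CPM in Grhl2KO_Myc libraries, 211 to 241 CPM in Myc libraries and 188 to 193 CPM in wildtype libraries, so all 3 Myc libraries exceeded the rest. Most of this sum was Adgrf5, with means of 97.6, 124 and 112 CPM in these groups. In Grhl2KO_Myc against Myc kidneys all 6 lay below 0 (median log2 fold change -0.488), beside 49.47% of all genes. Of these, 3 lay wholly lower, against 7.89%, and edgeR called Aqp6 and Slc26a7, against 0.484% called lower. In Myc against wildtype kidneys 5 of 6 lay above 0 (median 0.252) and 0 were called. Foxi1 and Dmrt2 lay wholly higher there, against 2.22%. Against wildtype kidneys the 6 genes did not move together in Grhl2KO_Myc kidneys. There edgeR called Foxi1 higher, against 4.06% of all genes, and Aqp6 and Slc26a7 lower, against 2.61%. Principal cell markers, 8 genes, summed to 660 to 804 CPM in Grhl2KO_Myc libraries, 707 to 836 CPM in Myc libraries and 570 to 910 CPM in wildtype libraries, with overlap. The largest part was Aqp2, with means of 328, 359 and 370 CPM in these groups. Single genes were opposed in Grhl2KO_Myc against Myc kidneys. Avpr2, Aqp4 and Fxyd4 lay wholly lower, against 7.89% of all genes, and Aqp3, Scnn1g and Hsd11b2 wholly higher, against 8.95%. Of the 8, edgeR called Avpr2 (-1, adjusted p = 9e-04) and Aqp4 (-1.18, adjusted p = 0.017), against 0.842% of all genes. The part of these cell types in the differences was not tested.

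**Figure D5:**
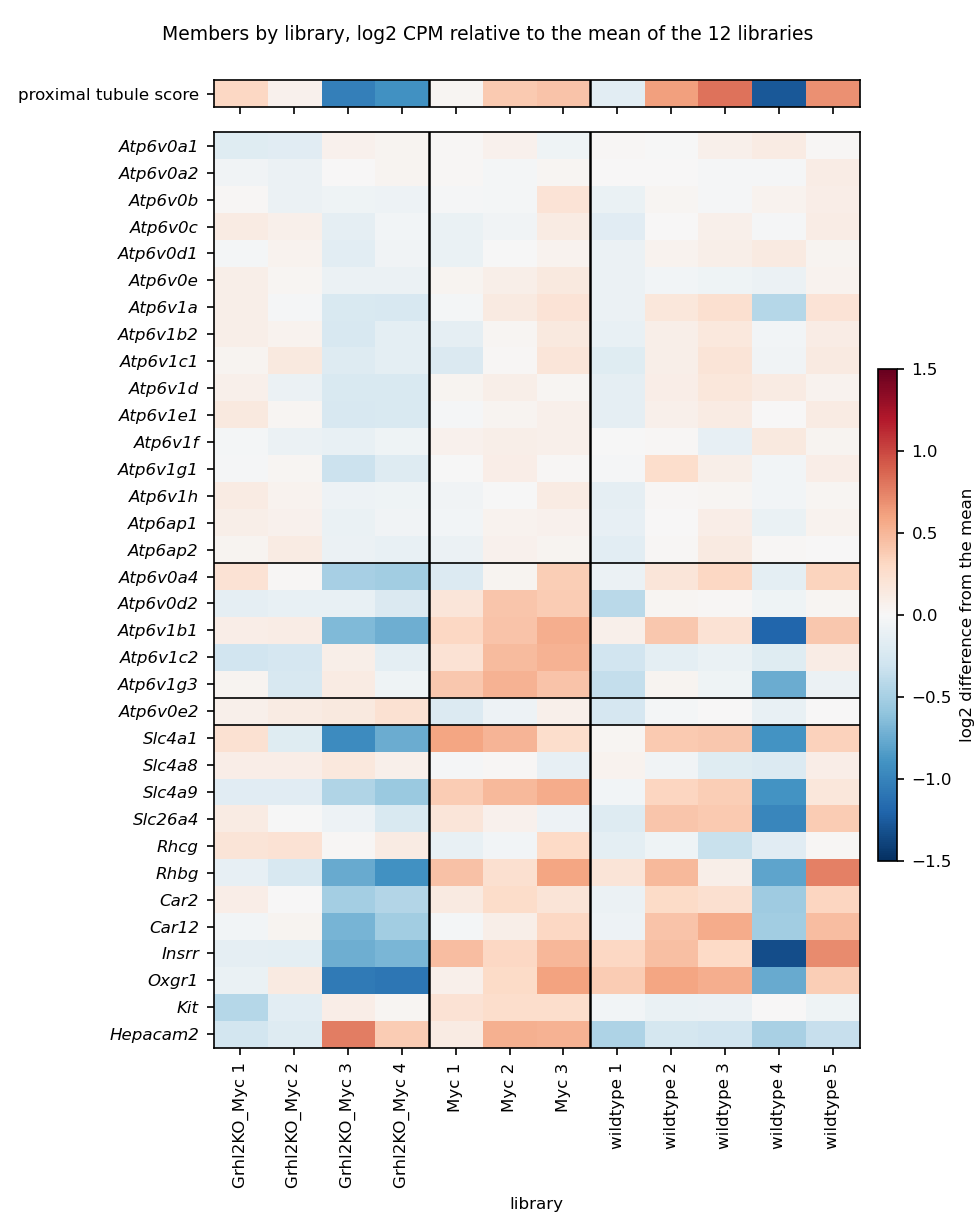
Log2 CPM of each of the 34 genes in each library relative to the mean of the 12 libraries, with the proximal tubule score in the top strip and lines between groups and classes. The columns Grhl2KO_Myc 3, Grhl2KO_Myc 4 and wildtype 4, whose scores are -1.02, -0.91 and -1.27, are blue for Atp6v1b1, Slc4a1, Slc4a9, Rhbg, Insrr and Oxgr1, while the ubiquitous subunits at the top stay pale.

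Other genes of the pathway were read from 2 lists. Of 14 further V-ATPase genes (the osteoclast subunit Tcirg1, rarer paralogs, assembly factors and regulators), 13 passed the filter. One of them was called, Oxr1, of a family that binds the pump, which was lower in Grhl2KO_Myc against wildtype kidneys at -0.19 ± 0.046 (SE) (edgeR adjusted p = 0.032), where 6.67% of all genes were called and 2.61% were called lower. It lost its call without any 1 of 7 libraries, namely wildtype 1, 2 or 3 or any Grhl2KO_Myc library, with adjusted p-values up to 0.082, and likewise without the 3 low libraries (0.0531), in the fit of the 2 groups alone (0.0547), with the replicate block (0.0591), with a term for sex (0.068) and with no filter beyond 1 count (0.0809). In Grhl2KO_Myc against Myc kidneys and in Myc against wildtype kidneys 0 of 13 were called by edgeR, DESeq2 or limma-voom, and 5 and 0 of them had an unadjusted edgeR p under 0.05, against 13.3% and 4.62% of all genes.

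Of 32 further acid-base genes, all tested, 3 rose and 3 fell in Grhl2KO_Myc against wildtype kidneys, against 4.06% and 2.61% of all genes. In Grhl2KO_Myc against Myc kidneys 1 rose, against 0.358%, and 2 fell, against 0.484%. In Myc against wildtype kidneys 0 were called by edgeR, where 2 had an unadjusted p under 0.05, against 4.62% of all genes. DESeq2 called 2 there, Foxi1 and Slc4a5, against 0.189% of all genes, and limma-voom 0. In Grhl2KO_Myc against Myc kidneys DESeq2 called Adgrf5 and Slc4a3 beside the 3 genes of edgeR, and limma-voom called Slc4a3. Slc4a5, an electrogenic sodium-bicarbonate cotransporter, had 17.3, 19.5, 20.7 and 18.8 CPM in Grhl2KO_Myc kidneys, 7.31, 9.15 and 7.34 CPM in Myc kidneys and 5.48, 5.66, 5.03, 4.79 and 5.36 CPM in wildtype kidneys. Its Grhl2KO_Myc libraries stood far above all others: it rose 2.41-fold against Myc kidneys (1.27 ± 0.10 (SE), adjusted p = 0.00016) and 3.62-fold against wildtype kidneys (1.86 ± 0.088 (SE), adjusted p = 1.2e-06).

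Aqp6, an anion-conducting aquaporin in the acid-secreting vesicles of type A cells, had 2.66, 1.77, 1.94 and 2.06 CPM in Grhl2KO_Myc kidneys, 8.54, 7.97 and 8.68 CPM in Myc kidneys and 8.36, 6.67, 6.85, 3.304 and 7.56 CPM in wildtype kidneys. It fell 3.98-fold in Grhl2KO_Myc against Myc kidneys (-1.99 ± 0.25 (SE), adjusted p = 0.0018) and 3.1-fold against wildtype kidneys (-1.63 ± 0.23 (SE), adjusted p = 0.0014). Slc26a7, a basolateral anion exchanger of type A cells, had 7.28, 8.58, 9.199 and 8.13 CPM in Grhl2KO_Myc kidneys, 14.1, 13.8 and 13.2 CPM in Myc kidneys and 13.6, 12.3, 13.4, 18.9 and 13.5 CPM in wildtype kidneys. It fell 1.65-fold against Myc kidneys (-0.72 ± 0.13 (SE), adjusted p = 0.027) and 1.73-fold against wildtype kidneys (-0.79 ± 0.12 (SE), adjusted p = 0.0025). The call against Myc kidneys was lost without any 1 Myc library or without Grhl2KO_Myc 1, 2 or 4 (adjusted p = 0.059 to 0.13), and with the replicate block (0.0692). Wildtype 4, where many genes of the set were lowest, had the highest Slc26a7 level.

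Foxi1, the transcription factor that specifies intercalated cells, had 36.3, 29.6, 41.6 and 34.8 CPM in Grhl2KO_Myc kidneys, 30.7, 38.5 and 56.00 CPM in Myc kidneys and 24.1, 24.8, 21.97, 19.9 and 23.5 CPM in wildtype kidneys. All Grhl2KO_Myc and Myc libraries lay above all wildtype libraries. It rose 1.56-fold in Grhl2KO_Myc against wildtype kidneys (0.64 ± 0.15 (SE), adjusted p = 0.026). The value in Myc against wildtype kidneys, 0.87 ± 0.16 (SE), did not pass in edgeR (adjusted p = 0.31). The rise lost its call without wildtype 1, wildtype 3, Grhl2KO_Myc 1, Grhl2KO_Myc 3 or Grhl2KO_Myc 4 (adjusted p = 0.051 to 0.082), and also without the 3 low ones together (0.48, adjusted p = 0.142), with the replicate block (adjusted p = 0.0571) and with a term for sex (adjusted p = 0.0506).

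The other calls against wildtype kidneys were smaller or less steady. Slc4a3, an anion exchanger, rose by 0.22 ± 0.048 (SE) on the log2 scale (adjusted p = 0.019). Leaving out wildtype 2, wildtype 3 or Grhl2KO_Myc 4 ended that call (adjusted p = 0.0505 to 0.068), as did leaving out the 3 low libraries (0.0705) and the replicate block (0.0551). Slc9a3, the sodium-proton exchanger of the proximal tubule, was lower at -0.91 ± 0.23 (SE) (adjusted p = 0.034), although wildtype 4, with 7.23 CPM, overlapped the Grhl2KO_Myc range of 5.63 to 8.77 CPM. That call was lost without any 1 of 6 libraries (wildtype 1, 2, 3 or 5, Grhl2KO_Myc 3 or 4), with adjusted p-values of 0.067 to 0.104, and in the fit of the 2 groups alone (0.0635), with the replicate block (0.0534) and with a term for sex (0.0563).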

How the data were processed

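Polyadenylated RNA of the entire right kidney was extracted with Qiazol and a column kit with DNase digestion, and libraries were made with a TruSeq RNA v2 kit, an unstranded method, per the labels' protocols. Reads were aligned with HISAT2 to mm10, per the submitters' processing notes; the sources used here do not name the counting program, its annotation or its handling of reads with several matches. The authors deposited raw counts for 12 libraries in 1 table, with the exon width of each gene in bases beside the counts, and 0 columns belonged to other samples. Columns were assigned by the identifier in the sample titles, and groups were taken from the genotype label. Per degree of freedom, the chi-square between the most similar libraries of a group was 13.7, so each was counted as 1 replicate.

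From the deposited counts, CPM were computed with TMM scaling, and CPM per kilobase with the deposited exon width. Genes were tested with edgeR 4.0.16 in R 4.3.3 by its quasi-likelihood F test, after its default expression filter (minimum count 10), in 1 fit of all 12 libraries with a coefficient per group, and adjusted by Benjamini-Hochberg over the 23742 genes tested. An adjusted p under 0.05 was called. In this fit all groups share 1 estimate of the spread, so libraries outside a comparison also affect its p-values. The SE is the log2 fold change divided by the root of its F statistic. Groups were said not to overlap where the ranges of CPM were disjoint. The score of proximal tubule transcripts is the mean log2 CPM (prior count 2) of 22 markers relative to the mean of the 12 libraries. The test was also run on simulated counts with known changes, and the outcome is not given here. The members and lists were chosen with earlier results of these data known, so counts over them are descriptions. Values in every library are given for restricted subunits, their paralogs, called members and the transport, enzyme and receptor genes; other members are given by range, and genes outside the set where they were called or serve as markers. Atp6v1f and Atp6v0e2 were added because their groups did not overlap, after their values were seen. Alternatives were upper-quartile or RLE scaling, a filter of 1 CPM in 3 libraries or of 1 count in all, DESeq2 1.42.0, limma-voom (limma 3.58.1), fits of 2 groups alone, a replicate block, a term for sex, the proximal tubule score in the model, and fits without each library or without the 3 low ones. Coordinates are those of GENCODE M21 for mm10, and promoters were taken from RefSeq (GRCm38.p6).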

Additional observations from a re-analysis of the deposited data

Results flagged for a closer look

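In 4 of 68 tests, 1 library of a group lay far from the others by Dixon's criterion, and chance flags about 1 in 20 groups. Oxgr1 in wildtype 4 had 11.2 CPM, against 24.5 to 28.5 CPM in the other wildtype libraries; this is 1 of the 3 libraries low in proximal tubule transcripts. Atp6v0d2 in wildtype 1 had 17.9 CPM, against 22.6 to 24.1 CPM in the others. Wildtype 5 stood above its group for 2 ubiquitous V0 subunits: Atp6v0a2 had 62.2 CPM there, against 56.9 to 58.1 CPM in the others, and Atp6v0e had 80.1 CPM, against 72.8 to 74.9 CPM. The Myc group, with 3 libraries, was too small for the criterion.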

How the results depend on the processing

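Of the class medians, that of the restricted subunits in Grhl2KO_Myc against Myc kidneys was -0.331 with the proximal tubule score in the model, against -0.482, a move larger than the spread of that class between replicates (0.139). The transport, enzyme and receptor genes vary more (0.314), so larger moves lay within their spread: in Grhl2KO_Myc against wildtype kidneys their median was -0.094 with the score in the model, against -0.322, and in Myc against wildtype kidneys it was 0.016 without wildtype 4 or without the 3 low libraries, against 0.194. The 2 members called in Grhl2KO_Myc against Myc kidneys became 0 with upper-quartile scaling, with no filter beyond 1 count and with a term for sex, 5 with DESeq2 (Atp6v0d2, Atp6v1c2, Kit, Rhbg and Slc4a9, against 3.6% of all genes), 4 without the 3 libraries low in proximal tubule transcripts (Atp6v1c2, Hepacam2, Kit and Slc4a9, against 1.33%), and 0 to 6 without each library in turn. The highest count was without wildtype 4, a library of neither group (Atp6v0d2, Atp6v1c2, Atp6v1g3, Insrr, Rhbg and Slc4a9, against 2.96%). With the proximal tubule score in the model 2 were called, Kit and Slc4a9. Against wildtype kidneys, Grhl2KO_Myc kidneys had 3 members called with DESeq2, 3 without the 3 low libraries (Atp6v0a1, Insrr and Slc4a9, all lower, against 4.61% of all genes in that direction) and 0 to 5 without each library in turn, the highest without wildtype 4 (Car12, Insrr, Oxgr1, Rhbg and Slc4a9, all lower, against 6.97%). Myc against wildtype kidneys had 3 with DESeq2 and 0 to 0 without each library. The cause was not tested.

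Some log2 fold changes that had not passed the test changed sign. Atp6v1c2 in Grhl2KO_Myc against wildtype kidneys was 0.033 with the replicate block and -0.109 to 0.03 without each library. Atp6v1b1 in that comparison was 0.077 with the proximal tubule score in the model, against -0.328. Atp6v0a4 in Grhl2KO_Myc against Myc kidneys was 0.028 without the 3 low libraries, and in Myc against wildtype kidneys it was -0.208 to 0.078 without each library. Slc26a7 in Myc against wildtype kidneys was 0.054 without the 3 low libraries and -0.121 to 0.055 without each library. Foxi1 in Grhl2KO_Myc against Myc kidneys was -0.411 to 0.035 without each library. Without each library in turn, the group differences in paralog ratio moved by less than the replicate spread, a spread that wildtype 4 widens for Atp6v1b1. RLE scaling and no division by exon width could not move these differences, because both factors cancel in them.

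Replicate numbers did not pair the libraries: 1 of 10 same-numbered pairs had a correlation of deviations over 0.1, with a range of -0.11 to 0.23. With the replicate block, 1 member was called in Grhl2KO_Myc against Myc kidneys (Atp6v1c2, with 88 of all genes) and 0 in the other comparisons (993 and 0 of all genes for Grhl2KO_Myc and Myc against wildtype kidneys). All members passed the filter on low counts. The share of depth and of the number of libraries in the precision was not tested.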
